A study of Mus musculus with 2 samples.

Results

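The extracellular matrix of the mouse liver and the enzymes that remodel it were followed through 46 genes of the 33696 measured. They were chosen by symbol: 5 fibrillar collagen chains, 4 other collagen chains, 7 basement membrane genes, 15 glycoprotein, proteoglycan and elastic fibre genes, 2 cross-linking enzymes, 7 proteases and inhibitors, 3 growth factor and receptor genes and 3 contractile or cytoskeletal genes. All 46 symbols matched a single row in both libraries. Cells of the liver had been profiled singly in droplets (Chromium 3' v3 chemistry), with 1 library labelled SLC22A18-/- and 1 labelled SLC22A18+/+. These are called the KO-labelled and the WT-labelled library, and the labels name no further treatment, allele or time point. SLC22A18 encodes a membrane protein of the organic cation transporter family. The strain, age, sex and number of the mice, and which stretch was deleted, were not stated in the sources used here. With 1 library per genotype there was no replicate, so no test was run, and genotype cannot be told apart from animal, dissociation or library.

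Hepatic stellate cells store vitamin A in the space between hepatocytes and sinusoids, and on activation they are known to lay down fibrillar collagen and to gain smooth muscle actin. Portal fibroblasts hold the connective tissue around the portal tract, mesothelial cells cover the capsule, and sinusoidal endothelium lies on a sparse matrix rather than the continuous basement membrane of other capillaries. Collagen IV, laminin, nidogen and perlecan build basement membranes, while elastin, fibrillin and fibulins build elastic fibres of vessel walls.

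The 2 collagen IV chains with the most counts, Col4a1 and Col4a2, are neighbours that are transcribed away from each other, and their promoter windows are shown because the ratio of their counts is followed across classes in the results on endothelium. The windows run from 250 bases before to 50 after the annotated starts in RefSeq (GRCm38.p6): Col4a1 on chr8:11312777-11313076, minus strand, and Col4a2 on chr8:11312555-11312854, plus strand. Capitals mark the 78 bases that both windows hold, on opposite strands.
Col4a1: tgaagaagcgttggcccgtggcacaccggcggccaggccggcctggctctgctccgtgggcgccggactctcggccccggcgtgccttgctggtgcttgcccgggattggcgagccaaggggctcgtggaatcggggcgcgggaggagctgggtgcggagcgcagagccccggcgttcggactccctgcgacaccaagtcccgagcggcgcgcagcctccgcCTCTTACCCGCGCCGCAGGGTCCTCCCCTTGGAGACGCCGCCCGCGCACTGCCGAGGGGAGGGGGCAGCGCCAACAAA
Col4a2: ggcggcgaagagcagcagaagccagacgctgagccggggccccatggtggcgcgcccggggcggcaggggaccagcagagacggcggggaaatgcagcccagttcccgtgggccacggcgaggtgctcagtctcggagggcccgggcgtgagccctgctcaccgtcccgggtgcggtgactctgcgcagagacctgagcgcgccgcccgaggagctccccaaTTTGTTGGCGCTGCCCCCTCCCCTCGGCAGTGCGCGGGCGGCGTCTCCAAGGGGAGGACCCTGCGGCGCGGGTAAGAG
The annotated starts lay 21 bases apart. Of the 46 genes, 31 had a window in that table, and 3 of these (Col4a1, Col4a2 and Lamb1) shared bases with the window of another gene on the other strand, which 10.8% of all 32851 windows did.

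The libraries held 11741 barcodes with 103478998 unique molecular identifiers (UMIs) in the KO-labelled library and 12796 barcodes with 105556354 UMIs in the WT-labelled library. After filtering, 11154 and 12002 cells with medians of 5866 and 5344.5 UMIs were kept, and 38 barcodes occurred in both libraries, 34 of them among kept cells. Slc22a18 itself, the gene named in the labels, was at 21.3 CPM (counts scaled to a sum of 1000000 UMIs per class) over all kept cells of the KO-labelled library and at 24.4 CPM in the WT-labelled one. In hepatocytes it was at 53.1 and 57.3 CPM, and in Kupffer cells, the macrophages of the liver, at 5.7 and 11.9 CPM. These 3'-end counts therefore do not verify the label, and whether the counted end lies outside a deleted stretch was not tested. Cells were clustered without the 46 genes, so that their levels by class are not what defined the classes. Of the cells that clustered as mesenchymal, 53.2% in the KO-labelled and 49.9% in the WT-labelled library were set aside because their clusters carried hepatocyte, endothelial or immune markers or too few of their own, and 32% and 36.8% of those that clustered as endothelial. Names below stand for cells that carry the markers of that class.

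Matrix genes took very different shares of the RNA of each class. In fibroblast-like cells they made up 7.31% of all UMIs in the KO-labelled and 7.97% in the WT-labelled library. In stellate-like cells the shares were 3.86% and 4.02%, and in smooth muscle-like cells 3.75% and 3.34%. Mesothelial-like cells and every endothelial class lay near 1%: the lowest was 0.671% in sinusoidal cells of neither zone, and the highest 1.31% in mesothelial-like cells of the WT-labelled library. Hepatocytes and Kupffer cells stood at 0.136% and 0.117% in the KO-labelled library, against 0.121% and 0.113% in the WT-labelled one. Sinusoidal cells, far more numerous, carried 31.2% and 31.4% of all matrix UMIs, and stellate-like cells 8.84% and 9.43%, with a further 28.6% and 30.1% in the cells that were set aside.

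**Figure D1:**
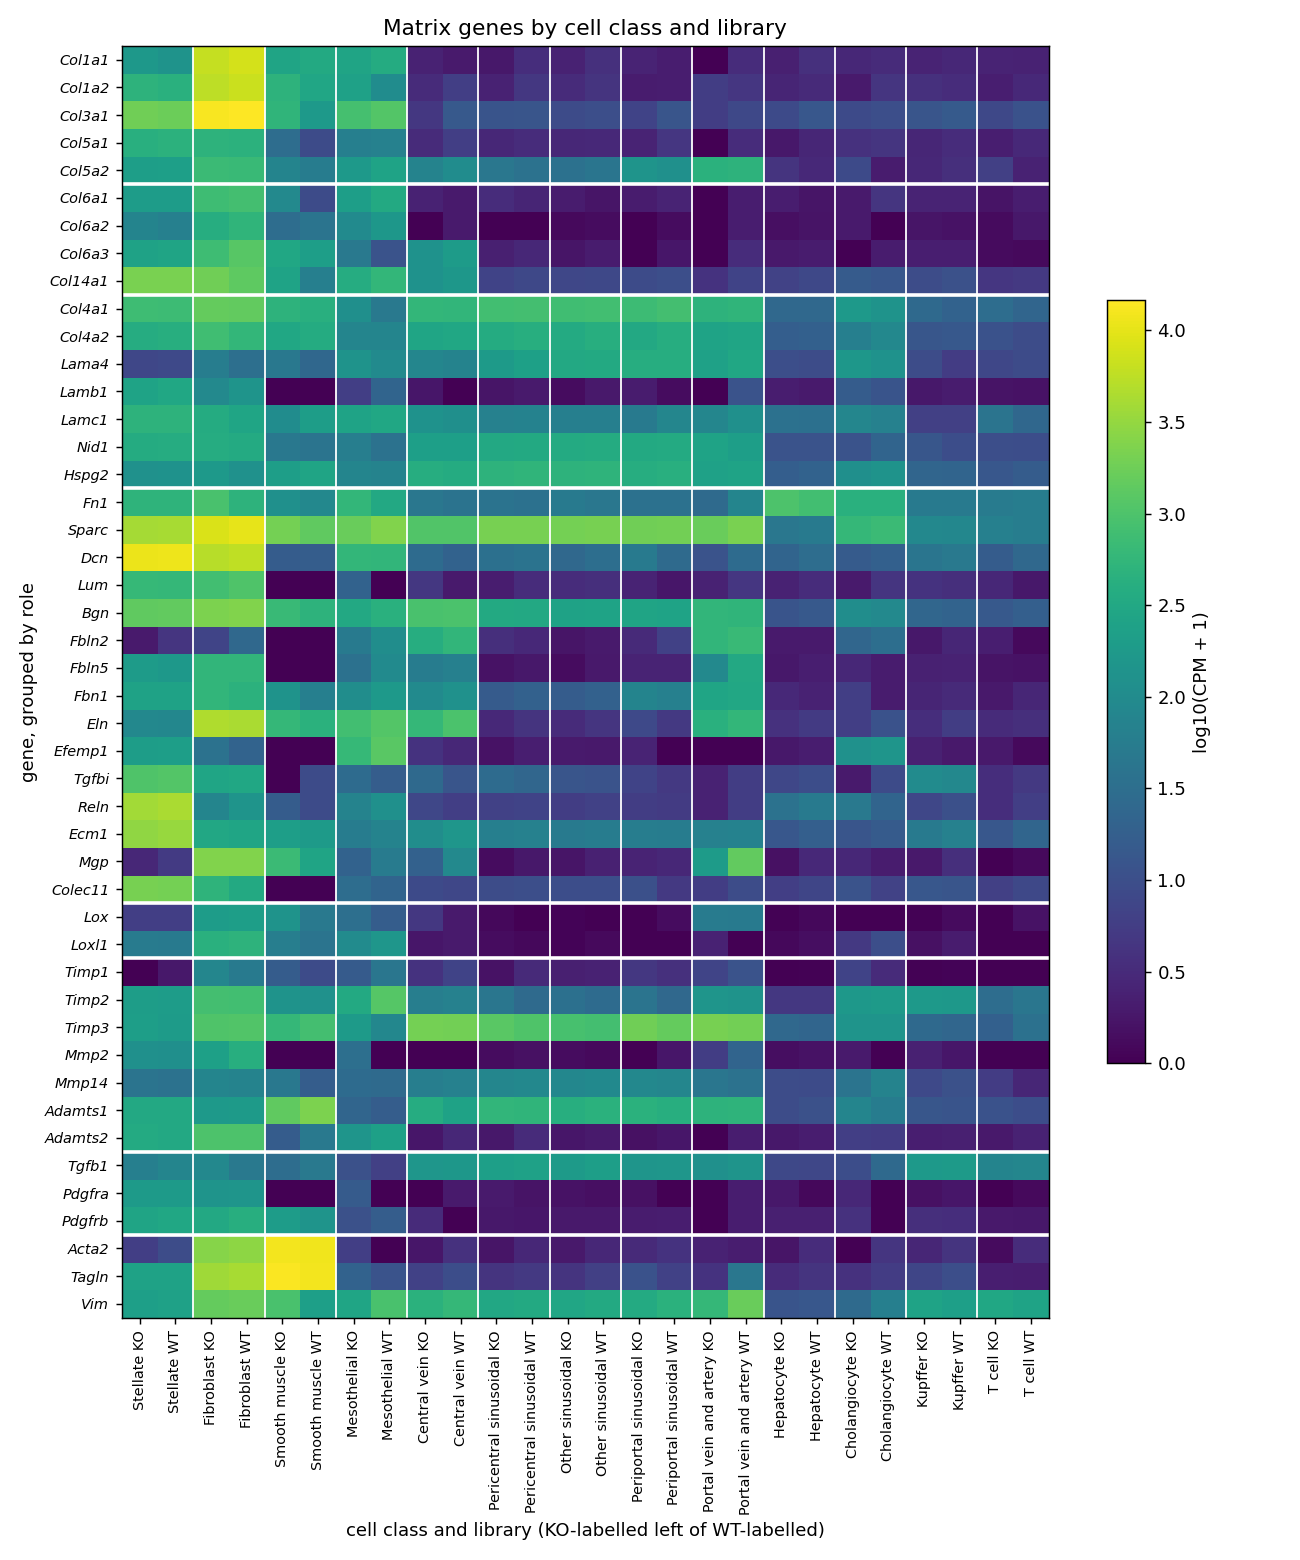
Heat map of the 46 matrix genes (rows, by role) in 13 cell classes (columns, KO-labelled left of WT-labelled), coloured by log10(CPM + 1). The fibroblast-like columns are brightest for the fibrillar collagens, the smooth muscle-like columns for Acta2 and Tagln, and the stellate-like columns for Dcn, Reln and Ecm1, while hepatocyte, Kupffer and T cell columns are dark for most genes.

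The highest level was in the same class in both libraries for 41 of the 46 genes. Fibroblast-like cells led for 23 of them, among them all 5 fibrillar collagen chains (Col5a1 by less than its error over stellate-like cells in the WT-labelled library), all 3 collagen VI chains, Eln, Mgp, Lox and Loxl1. Stellate-like cells led for 9: Col14a1, the laminin chains Lamb1 and Lamc1, Dcn, Tgfbi, Reln, Ecm1, Colec11 and Pdgfra. Smooth muscle-like cells led for Acta2, Tagln and Adamts1, and mesothelial-like cells for Efemp1. Endothelial classes led for the basement membrane genes Hspg2 (pericentral sinusoidal), Lama4 (periportal sinusoidal), and for Fbln2 (portal vein and artery). Hepatocytes led for Fn1 alone, and monocytes for Tgfb1. In the KO-labelled library 2 of these leads were smaller than their counting error. These were Hspg2 over sinusoidal cells of neither zone and Tgfb1 over pericentral sinusoidal cells. Nid1, Timp2, Timp3, Mmp14 and Vim had different leading classes in the libraries. In all, 38 genes were highest in a stellate-like, fibroblast-like, smooth muscle-like or mesothelial-like class in both. Free RNA set a floor under these levels. In T cells, which should lack them, Dcn was at 15.3 CPM in the KO-labelled and 24.7 CPM in the WT-labelled library, and Sparc at 63.3 and 56.8 CPM. In hepatocytes 45 of the 46 genes were under 10% of their highest class in both libraries. Low levels of collagen there were not tested against free RNA and are not read as expression. In hepatocytes several mesenchymal genes were lower in the KO-labelled library. Dcn was at 21.2 and 29.4 CPM, Col1a1 at 1.36 and 2.76 CPM and Mgp at 0.567 and 2.0 CPM. In T cells Dcn was lower in the KO-labelled library too, but Sparc and Col1a1 were not. Whether the floor differed between the libraries was not tested.

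Stellate-like cells (246 in the KO-labelled and 280 in the WT-labelled library) drew most of their matrix UMIs from small proteoglycans and secreted glycoproteins, and these levels were close in the libraries. Dcn, a small proteoglycan that binds collagen fibrils, was at 10902 CPM in the KO-labelled and 11609.9 CPM in the WT-labelled library. Sparc, a collagen-binding glycoprotein, was at 4073 and 4147 CPM. Reln, a large secreted glycoprotein used as a stellate cell marker, was at 3909 and 4271 CPM. When each cell was thinned to 1699 UMIs, Dcn was found in 93.6% and 93.2% of stellate-like cells and Reln in 98% and 99.1%. In T cells at that depth the shares were 2.27% and 3.96% for Dcn and 0.758% and 0.833% for Reln. Unthinned median depths were 2754.5 and 2830 UMIs in stellate-like and 6487 and 5912 in T cells, and thinning left out 44 and 61 shallower stellate-like cells. Nearly all stellate-like cells of both libraries thus carried these genes. Ecm1, a secreted protein that restrains activation of latent TGF-beta in mouse liver, was at 2920.1 and 3376 CPM, a KO over WT ratio of 0.865 (95% interval 0.825 to 0.907). Colec11, a secreted collectin of the complement lectin pathway, was at 2011 and 1979.7 CPM, and the small proteoglycans Bgn and Lum were at 1385 and 608 CPM in the KO-labelled and 1432 and 602 CPM in the WT-labelled library. Tgfbi, a TGF-beta-induced integrin ligand, was at 1055 and 1125 CPM.

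Among the collagens of stellate-like cells, Col3a1 was at 1821 CPM in the KO-labelled and 1721 CPM in the WT-labelled library and Col14a1, a fibril-associated chain, at 2153 and 2103 CPM. Col1a1, the major chain of type I collagen, was at 166 and 135 CPM, and Col1a2 at 485 and 439.8 CPM. Col5a1, a chain of collagen V, was at 423 and 470.5 CPM, and Col6a3, a chain of the beaded filament collagen VI, at 249 and 273 CPM. At the common depth of 1699 UMIs per cell, Col1a1 was found in 12.4% of KO-labelled and 10.5% of WT-labelled stellate-like cells, and without thinning in 21.1% and 20.7%. None of the T cells thinned to that depth held one (0 of 396 and 0 of 480, which allows shares of up to 0.758% and 0.625%). These shares follow the level and the depth and do not limit how many cells express the gene. Col3a1, at its higher count, was found in 60.4% and 67.6% at the same depth. Acta2, the smooth muscle actin by which activated stellate cells are recognised, had 5 and 10 UMIs in all, and at that depth was found in 0.495% and 0.457% of stellate-like cells, against 0% and 0.208% of T cells. It was therefore at the level of free RNA in both libraries. Tagln, an actin-binding protein of contractile cells, was at 249 and 252 CPM, and Vim, an intermediate filament protein, at 221 and 243 CPM.

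Basement membrane genes of stellate-like cells were likewise close: Col4a1 was at 737 and 727 CPM, Lamc1 (laminin gamma-1 chain) at 486 and 490.4, and Nid1 (nidogen) at 362 and 378. Lamb1, the laminin beta-1 chain, was at 259 and 303 CPM here, against 4.92 and 20.9 CPM in mesothelial-like cells and 0.601 and 0.892 CPM over all sinusoidal cells. Remodelling genes were even as well. Adamts2, which trims the amino end of procollagen, was at 354 and 324 CPM, and Adamts1, a protease of proteoglycans, at 321 and 329 CPM. Of the inhibitors, Timp2 was at 203 and 202 CPM and Timp3 at 215 and 195 CPM, while Timp1 had 0 and 1 UMIs. Mmp2 (gelatinase A) was at 123 and 119 CPM and its membrane-bound activator Mmp14 at 38.6 and 35.6 CPM. The cross-linking enzymes Loxl1 and Lox had 54 and 5 UMIs in the KO-labelled and 61 and 6 in the WT-labelled library. Pdgfrb, the receptor through which platelet-derived growth factor drives stellate cell growth, was at 267 and 303 CPM, and Pdgfra at 185 and 186 CPM.

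A gene was called higher or lower when its ratio of CPM was at least 2 either way with at least 50 UMIs over both libraries, its 95% interval lay off 1 and 5% or more of cells in the higher library carried it. Among stellate-like cells 0 of the 40 matrix genes with 50 UMIs were called higher in the KO-labelled library and 0 lower, against 0.499% and 0.469% of all 6818 genes tested there. Their ratios ran from 0.796 (Tgfb1) to 1.23 (Col1a1), and both of those intervals held 1. The other 6 (Acta2, Fbln2, Lama4, Lox, Mgp and Timp1) had too few UMIs. The median log2 ratio of the matrix genes with at least 20 UMIs was -0.015, against -0.0057 over all genes. Ratios further from 1 than the counting error were small: Reln stood at 0.915 (95% interval 0.878 to 0.954) and Dcn at 0.939 (95% interval 0.916 to 0.963). When the set-aside mesenchymal clusters with another class's markers were added (612 and 639 cells), Fbln2 (6.54 and 13.7 CPM) and Lox (1.57 and 3.55 CPM) were called lower, a setting chosen after seeing the data. The share of all genes called in that setting is not given. The dissociation response genes, which are known to rise in handling, had a median log2 ratio of 0.38 in these cells, with 0 of 17 called higher and 1 (Hspb1) lower, and their part in these values was not tested.

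**Figure D2:**
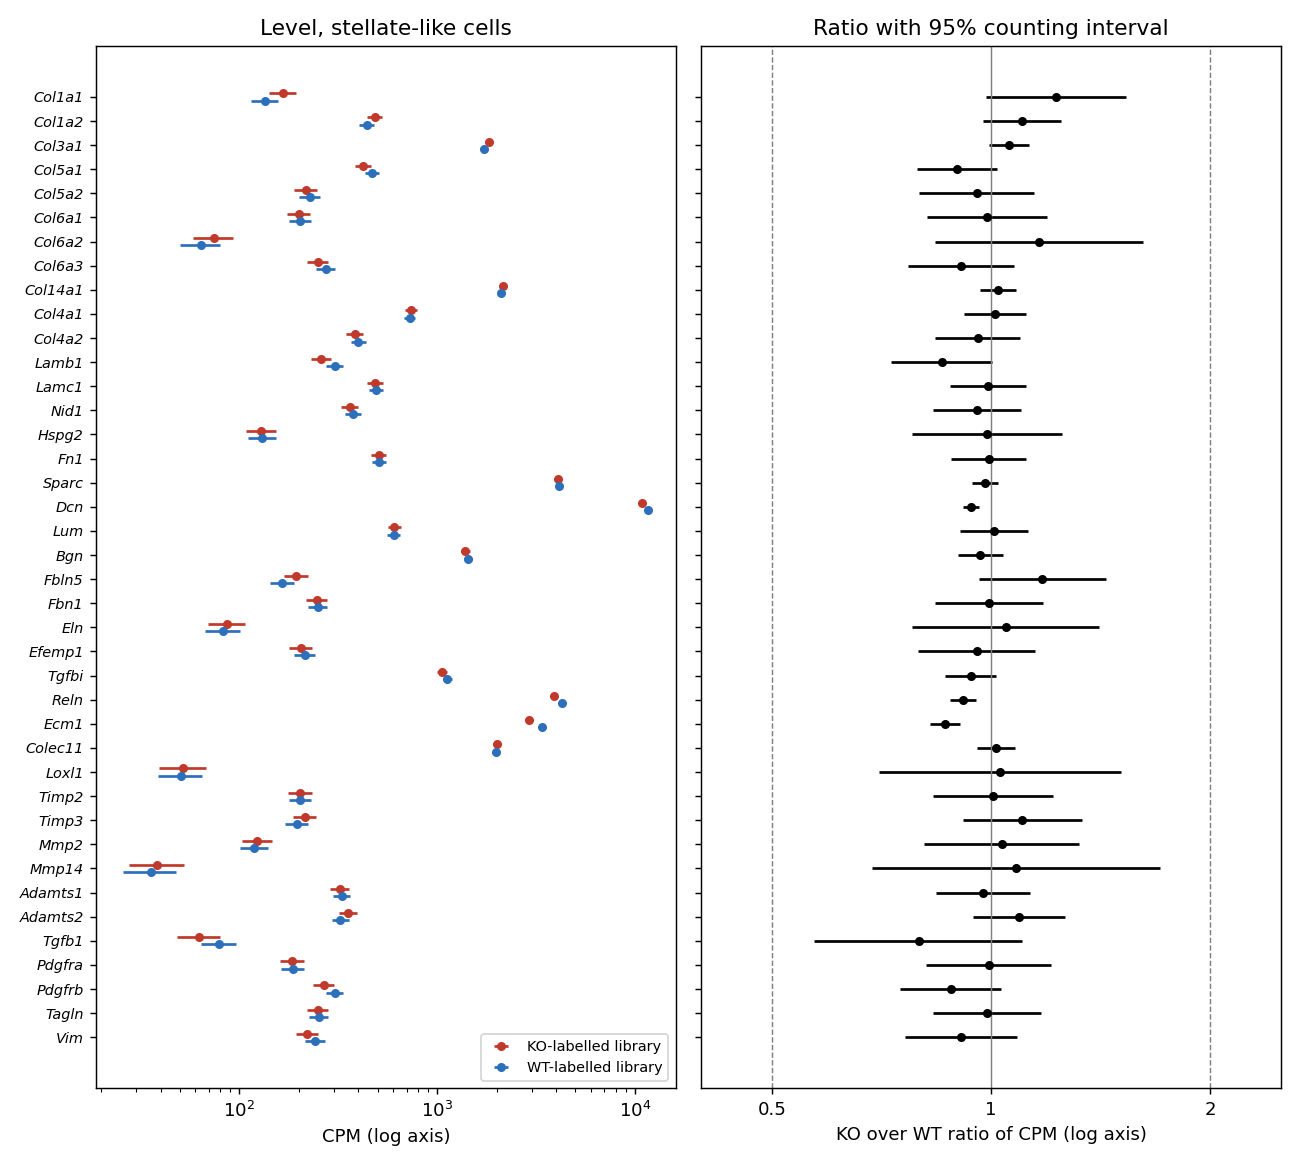
Left, CPM (log axis) of the 40 matrix genes with at least 50 UMIs in stellate-like cells, with 95% Poisson intervals, for the KO-labelled (red) and the WT-labelled library (blue). Right, the KO over WT ratio of each (log axis) with its 95% counting interval and dashed lines at 0.5 and 2: every point lies between the dashed lines.

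The stellate-like class held cells of different kinds of profile. One cluster (71 KO-labelled and 93 WT-labelled cells) had medians of 8568 and 8246 UMIs, and the other 2 clusters together (175 and 187 cells) medians of 2287 and 2086. Matrix genes made up 5.46% and 5.44% of UMIs in the high-UMI cluster, and 1.49% and 1.5% in the low-UMI clusters. The genes did not differ by one common factor. Sparc was 21 times higher per UMI in the high-UMI cluster of the KO-labelled library and 20.8 times in the WT-labelled library. For Col1a1 the factor was 15.9 and 17.8, and for Dcn 9.51 and 11. Reln, Lamc1 and Pdgfrb were instead at equal or higher levels in the low-UMI cells, with factors of 0.831, 0.852 and 0.732 in the KO-labelled and 0.879, 0.996 and 0.759 in the WT-labelled library. Genes that span more of the genome kept more of their level in the low-UMI cells: Ecm1 spans 5.42 kb and Reln 460.2 kb. Across 39 matrix genes with 50 UMIs, Spearman's rho between gene span and this factor was -0.652 in the KO-labelled and -0.73 in the WT-labelled library (Pearson's r on log scales -0.658 and -0.706), a description across genes that share the same cells. The low-UMI cells also had a lower median mitochondrial share, 1.52% and 1.42%, against 2.79% and 3.13% in the high-UMI cluster, and the part of depth and of RNA quality in these factors was not tested. Within the high-UMI cluster, KO over WT ratios ran from 0.804 to 1.3, with Col1a1 at 1.3 (95% interval 1.04 to 1.63) and Col1a2 at 1.24 (95% interval 1.09 to 1.42).

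**Figure D3:**
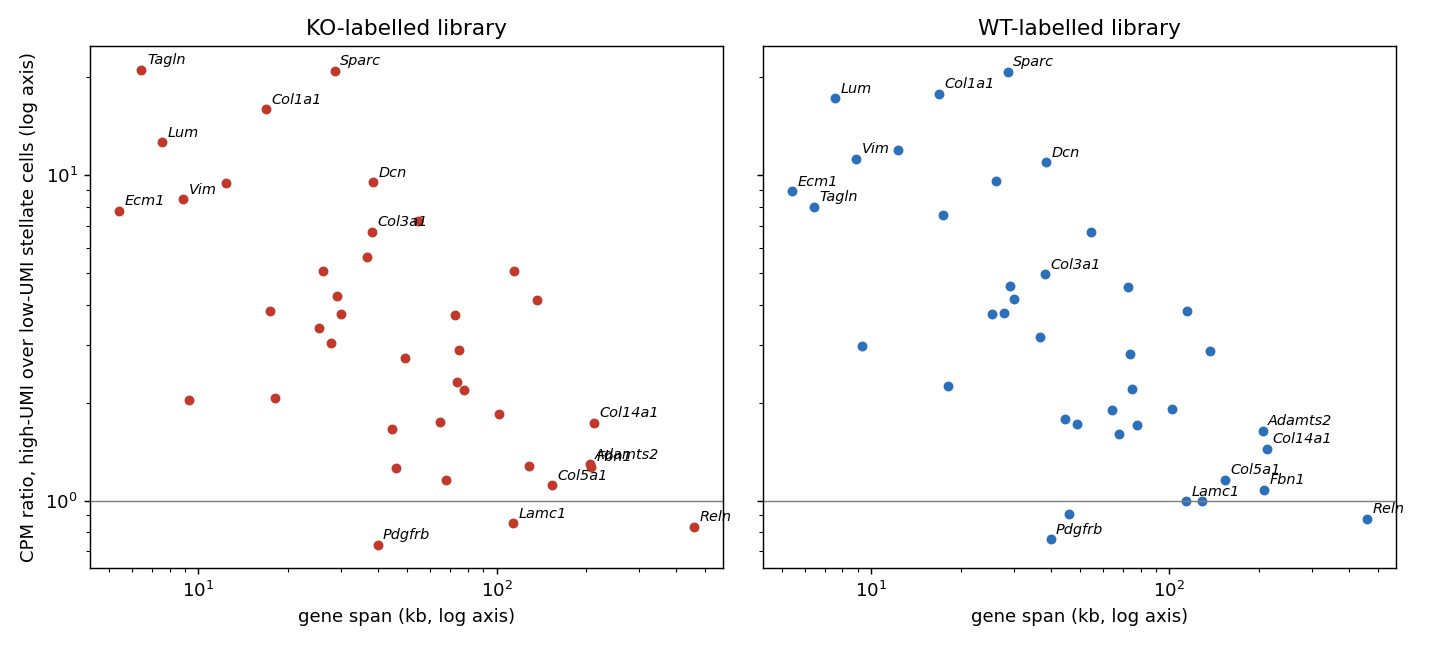
For matrix genes with at least 50 UMIs, the ratio of CPM in the high-UMI over the low-UMI stellate-like clusters (log axis) against the gene's span in kb (log axis), KO-labelled library left and WT-labelled library right. Sparc, Col1a1 and Lum lie high at short spans and Reln lies below 1 at the longest span in both libraries.

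Fibroblast-like cells (29 KO-labelled and 39 WT-labelled cells), led by Dpt, Mfap4 and Fbln1, carried the fibrillar collagens at the highest levels. Col1a1 was at 6287 CPM in the KO-labelled and 7959 CPM in the WT-labelled library, Col1a2 at 5613 and 6814 CPM, and Col3a1 at 13412 and 14621 CPM. These levels lay far above those of stellate-like cells in both libraries, where Col1a1 was at 166 and 135 CPM. Elastic fibre genes were as plain: Eln (elastin) was at 4627 and 4375 CPM, Fbn1 (fibrillin-1) at 557 and 477 CPM, and Fbln5, a fibulin needed for elastic fibre assembly, at 545 and 551 CPM. Mgp, an inhibitor of calcification in vessel walls and cartilage, was at 2343 and 2338 CPM, a ratio of 1.0 (95% interval 0.914 to 1.1). The elastin and collagen cross-linkers Lox and Loxl1 were at 199 and 444 CPM in the KO-labelled library, against 212 and 489.7 CPM in the WT-labelled one. Acta2 and Tagln were present too, at 2584 and 3720.5 CPM in the KO-labelled and 2912 and 4107 CPM in the WT-labelled library. The 8 smooth muscle markers summed to 3185 and 3779.6 CPM, against 5778 and 7756 CPM for the 11 fibroblast markers, so the class held contractile markers in both libraries.

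Of 43 matrix genes tested in fibroblast-like cells, 0 were called higher and 0 lower in the KO-labelled library, against 1.86% and 2.71% of 3390 genes. Past a ratio of 1.5 with an interval without 1, 3 were higher and 4 lower. The share of all genes past that limit is not given, so these counts are not read as a result about the matrix genes. Fn1 (fibronectin) was at 916 and 492 CPM, a ratio of 1.86 (95% interval 1.57 to 2.21), Colec11 at 517 and 337 CPM, and Tgfb1, the profibrotic growth factor, at 85.7 and 46.5 CPM from 28 and 25 UMIs. For Tgfb1 the ratio was 1.47 (0.736 to 2.89) without the top cell of each library, no longer past 1.5. Lower in the KO-labelled library was Col6a3, at 753 and 1199 CPM, a ratio of 0.628 (95% interval 0.54 to 0.729). Mmp2 was at 229.7 and 406 CPM, a ratio of 0.566 (95% interval 0.429 to 0.739), Reln at 76.6 and 143 CPM and Lamb1 at 88.8 and 143 CPM. Markers of other cells differed as well: the 8 hepatocyte markers summed to 4403 and 2554 CPM, the 8 Kupffer markers to 156 and 646 CPM and the 6 markers of dividing cells to 24.5 and 153 CPM, and their part in these ratios was not tested. Reln rested on few cells: 1 cell held 48% of its KO-labelled UMIs.

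Smooth muscle-like cells numbered 11 and 18, too few for a comparison, and are only described. Acta2 was at 12554 CPM in the KO-labelled and 11859 CPM in the WT-labelled library and Tagln at 13626 and 12266 CPM. Adamts1 was at 1420.0 and 2222 CPM, above every other class in both libraries. Fibrillar collagen stayed low, with Col1a1 at 272 and 336 CPM, and Dcn had 1 and 2 UMIs.

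Mesothelial-like cells (46 KO-labelled and 34 WT-labelled cells, led by Igfbp5, Gpm6a and Msln) were marked by Efemp1, a fibulin, at 618 CPM in the KO-labelled and 1237 CPM in the WT-labelled library. Sparc was at 1634 and 2376 CPM, Eln at 795 and 1123 CPM and Col3a1 at 873 and 1143 CPM. Timp2, an inhibitor that also takes part in Mmp2 activation, was at 335 and 1169.5 CPM, a ratio of 0.286 (95% interval 0.229 to 0.356). Vim was at 283 and 914 CPM, a ratio of 0.31 (95% interval 0.243 to 0.394), and Efemp1 had a ratio of 0.499 (95% interval 0.416 to 0.598). These 3 were called lower in the KO-labelled library, and Col1a2 (239 and 104 CPM), Timp3 (185 and 83.5 CPM) and Col4a1 (118 and 47 CPM) were called higher. Dcn was at 576 and 559 CPM, Col1a1 at 268 and 371 CPM and Bgn at 327 and 433 CPM. That is 3 higher and 3 lower of 23 tested, against 6.94% and 4.37% of 3041 genes. Short of a ratio of 2 but past 1.5 were Fn1, with a ratio of 1.79 (95% interval 1.34 to 2.4), and, lower in the KO-labelled library, Col6a1 (0.641), Col6a2 (0.593), Col14a1 (0.641) and Adamts2 (0.643). The median log2 ratio of the matrix genes was -0.47, against 0.045 over all genes.

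The cells behind these mesothelial values differed between the libraries. Cells with at least 10000 UMIs numbered 11 and 3 and held 73% of the class's UMIs in the KO-labelled and 49.1% in the WT-labelled library. The 11 mesothelial markers summed to 1811 CPM in those deep KO-labelled cells, against 9374 CPM in the deep WT-labelled ones. The 10 endothelial markers summed to 1582 and 404 CPM there. Among the shallower cells the mesothelial markers summed to 8732 and 8786 CPM, but the endothelial markers still to 773 and 308 CPM and the 11 fibroblast markers to 1246 and 2153 CPM, and their part in these ratios was not tested. In those cells the ratio of Timp2 was 0.466 (95% interval 0.337 to 0.639), still past the rule, but that of Vim was 0.785 (95% interval 0.516 to 1.19) and that of Efemp1 1.05 (95% interval 0.823 to 1.35). Col1a2, whose top KO-labelled cell held 74 of 97 UMIs, had a ratio of 0.819 without the top cell of each library. The other genes called higher lost their calls as well: without the top cells Timp3 had a ratio of 1.82 (0.921 to 3.9) and Col4a1 of 2.4 (0.986 to 7.04), and in the shallower cells the ratios were 1.33 and 1.77, with intervals that held 1. Fn1 depended on 1 WT-labelled cell with 45 of 62 UMIs: its ratio was 4.06 (2.47 to 7.13) without the top cells and 1.72 (95% interval 0.932 to 3.3) in the shallower cells. Col14a1 and Adamts2 turned direction in the shallower cells, with ratios of 1.15 and 1.09 and intervals that held 1. In those cells 3 of 15 matrix genes with enough UMIs were called (Col1a1, Dcn and Timp2), against 5.84% of 754 genes. The restriction to shallower cells was chosen after seeing these values.

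Sinusoidal endothelium carried basement membrane genes together with Sparc, Timp3 and Adamts1. Over all sinusoidal cells (2061 KO-labelled and 2246 WT-labelled), Col4a1 was at 779.6 CPM in the KO-labelled and 817 CPM in the WT-labelled library. Hspg2, which encodes perlecan, was at 479 and 504 CPM, and Nid1 at 339.6 and 354 CPM. Sparc was at 1993 and 2033 CPM and Timp3, an inhibitor held in the matrix, at 1132 and 982 CPM. Adamts1 was at 468 and 477 CPM, Col4a2 at 357 and 405 CPM, Bgn at 291 and 287 CPM and Vim at 307 and 351 CPM. Fibrillar collagen I was at the level of free RNA: Col1a1 was at 1.25 and 2.5 CPM, against 1.59 and 1.47 CPM in T cells. Dcn, at 30.5 and 32.8 CPM, stood below the 41 and 48 CPM of Kupffer cells, which should lack it.

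Of the 34 matrix genes tested over all sinusoidal cells, 0 were called higher and 0 lower in the KO-labelled library, against 0.0902% and 0.0376% of all 13308 genes. The same held in each zone: 0 of 25 tested were called in either direction in pericentral cells (0.167% of all genes higher, 0.123% lower), 0 of 28 in sinusoidal cells of neither zone (0.0503% each way) and 0 of 19 in periportal cells (0.202% and 0.297%). Timp2 had a ratio with an interval above 1 in all 3 sinusoidal classes. Its levels were 41.6 and 26.8 CPM in pericentral, 34.1 and 27.6 CPM in other and 39.6 and 24.3 CPM in periportal cells. The ratios were 1.55 (95% interval 1.31 to 1.84), 1.24 and 1.63 in that order, while in T cells Timp2 stood at 29.3 and 41.5 CPM. In the pericentral class found with a limit of 10% mitochondrial UMIs the direction turned, with a log2 ratio of -0.0491. In periportal cells Dcn (51.2 and 27 CPM) and Lamc1 (50.7 and 79.1 CPM) were past 1.5 in opposite directions, and the ratio of Dcn was 1.44 without the top cell of each library. Timp3 differed by less, 1.15 times over all sinusoidal cells, and Vim was lower at 0.877. Ratios of the 34 tested genes over all sinusoidal cells ran from 0.464 to 1.4. Of these, 3 were past 1.5 with an interval below 1 and 0 with an interval above 1. No gene met the full rule for a call, and the share of all genes past 1.5 is not given.

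Between pericentral and periportal sinusoidal cells, several genes differed in the same direction in both libraries. The other sinusoidal cells are those named to neither zone, which is not a measured position between them. Lama4, the laminin alpha-4 chain of endothelial basement membranes, was at 188 CPM in pericentral, 328 in other and 398 in periportal sinusoidal cells of the KO-labelled library, and at 229, 335 and 389 CPM in the WT-labelled library. Its pericentral over periportal ratio was 0.473 in the KO-labelled and 0.589 in the WT-labelled library. Col5a2, a chain of fibril-forming collagen V, was at 44.3 and 145 CPM in pericentral and periportal cells of the KO-labelled library, against 35.7 and 121 CPM in the WT-labelled one. Fbn1 followed it, at 14.7 and 74.4 CPM in the KO-labelled and 18.6 and 63.1 CPM in the WT-labelled library. Tgfbi ran the other way, at 27.6 and 5.81 CPM against 22.3 and 3.92 CPM. In every sinusoidal class Tgfbi was under 10% of its level in stellate-like cells in both libraries. The part of free RNA in its zone difference was not tested. By the same rule applied to pericentral over periportal cells, 1 of 24 tested matrix genes (Tgfbi) was higher in both libraries and 2 (Col5a2 and Fbn1) were lower, against 1.09% and 0.69% of 10289 genes. Tgfb1 was 1.56 and 1.55 times the periportal level in pericentral cells, and Timp3 0.704 and 0.693 times. Col4a1, Col4a2, Nid1, Sparc and Hspg2 had ratios between 0.977 and 1.25 between these zones over both libraries. The zones were named from clusters, and when cells under 1000 UMIs were left out the cluster named periportal no longer had more Col5a2 in either library, or more Fbn1 in the WT-labelled library. Resolution 2 and a limit of 10% mitochondrial UMIs also left both genes short of the rule, Fbn1 in the WT-labelled library with its direction turned at resolution 2, while Tgfbi passed it under every alternative tried. For Lama4, Tgfb1 and Timp3, zone ratios under these alternatives are not given.

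**Figure D4:**
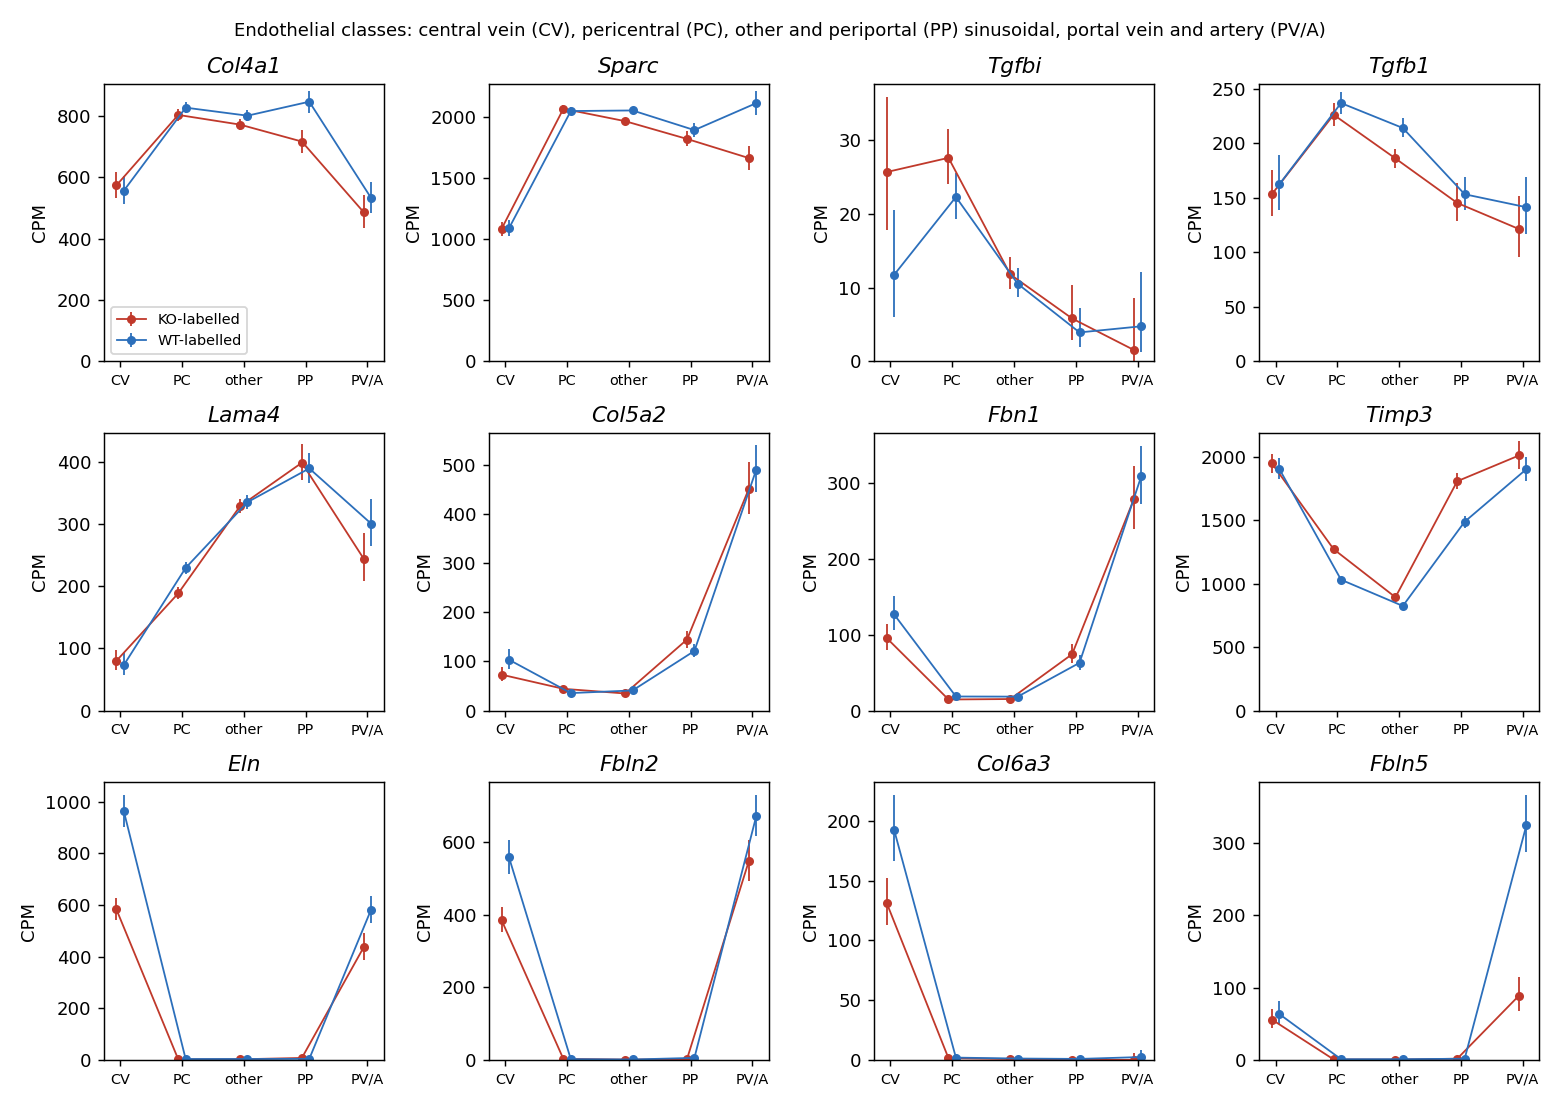
CPM of 12 matrix genes with 95% Poisson intervals in central vein, pericentral, other and periportal sinusoidal and portal vein and artery cells, for the KO-labelled (red) and the WT-labelled library (blue). Lama4 climbs from central vein to periportal cells, Col5a2 and Fbn1 are highest in portal vessels, and Eln and Fbln2 are found in both veins and are close to 0 in the sinusoidal classes.

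Col4a1 and Col4a2 were set against each other in each class. The ratio of Col4a1 to Col4a2 UMIs was 2.19 in pericentral cells of the KO-labelled and 2.05 in those of the WT-labelled library. It was 2.08 and 1.83 in central vein cells, and 1.86 and 1.9 in portal vein and artery cells. In the high-UMI stellate-like cluster it was 1.97 and 1.89, and in fibroblast-like cells 1.98 (95% interval 1.7 to 2.31) and 2.58 (2.26 to 2.95). The ratio thus lay between 1.83 and 2.58 in these 5 classes while the level of Col4a1 ran from 487 CPM in portal vessels to 1534 CPM in fibroblast-like cells of the KO-labelled library. The ratio was not the same everywhere. It was 1.61 and 1.43 in the low-UMI stellate-like clusters and 1.6 and 1.17 in smooth muscle-like cells. It was 1.5 and 0.6 in mesothelial-like cells, on 9 and 15 UMIs in the WT-labelled library, and 2.78 and 1.58 in cholangiocytes. Hepatocytes, with Col4a1 at only 24.8 and 24.6 CPM, had ratios of 1.5 and 1.36, and Kupffer cells of 2.1 and 1.51. UMI counts are taken near transcript ends and are not divided by length, so this is a ratio of counts and not of molecules of protein.

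The large vessels differed from the sinusoids by elastic fibre genes. In central vein cells (124 KO-labelled and 90 WT-labelled) Eln was at 582 CPM in the KO-labelled and 962 CPM in the WT-labelled library, and in portal vein and artery cells (45 and 75) at 436 and 582 CPM, against 2.6 and 3.34 CPM over all sinusoidal cells. Fbln2, a fibulin of vessel walls, was at 385 and 559 CPM in central vein cells and at 548 and 672 CPM in portal ones, against 1.6 and 1.92 CPM in sinusoids. Bgn was at 916 and 968 CPM in central vein and 549 and 535 CPM in portal cells, and Sparc at 1084 and 1089 CPM and 1664 and 2113 CPM. Both vessel types held more Bgn than the sinusoidal classes and less Col4a1, at 574 and 557 CPM in central vein and 487 and 533 CPM in portal cells. Vim stood at 449 and 599.7 CPM, Hspg2 at 389 and 364 CPM and Col4a2 at 275 and 305 CPM in central vein cells. Their collagens differed: Col6a3 and Col14a1 were at 131 and 131 CPM in central vein cells of the KO-labelled library and 192 and 158 CPM in those of the WT-labelled library, but had at most 5 UMIs in portal cells of either. Portal vein and artery cells held Col5a2 at 451 and 490.2 CPM, Fbn1 at 279 and 309.8 CPM, Adamts1 at 488 and 512 CPM and Lox at 52.2 and 49.9 CPM. Timp3 was high in both, at 1948 and 1904 CPM in central vein and 2009 and 1902 CPM in portal cells.

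Between the libraries, central vein cells had less Mgp in the KO-labelled one, 18.9 and 88.9 CPM from 25 and 91 UMIs, a ratio of 0.212 (95% interval 0.131 to 0.333). This made 0 higher and 1 lower of 25 tested, against 0.409% and 0.627% of 6854 genes. Without the top cell of each library the ratio was 0.26, and in T cells Mgp was at 0 and 0.294 CPM. Short of a ratio of 2, Eln had a ratio of 0.605 (95% interval 0.55 to 0.666), Col6a3 of 0.682 (95% interval 0.553 to 0.841) and Fbln2 of 0.69 (95% interval 0.611 to 0.779), while Adamts1 was at 379 and 250.1 CPM, a ratio of 1.52 (95% interval 1.3 to 1.77). The 8 central vein markers summed to 8835 CPM in the KO-labelled and 10244.5 CPM in the WT-labelled library, and the 9 sinusoidal markers to 4089 and 3116 CPM, and the part of that mix in these ratios was not tested.

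Portal vein and artery cells had the most genes called of any endothelial class: 0 higher and 4 lower of 23 tested, against 0.956% and 1.5% of 5333 genes. Mgp was at 192 CPM in the KO-labelled and 1433 CPM in the WT-labelled library, a ratio of 0.134 (95% interval 0.11 to 0.161). Fbln5 was at 89 and 325 CPM, a ratio of 0.274 (95% interval 0.203 to 0.364), and Vim at 592 and 1658 CPM, a ratio of 0.357 (95% interval 0.318 to 0.4). Fn1 was at 26.1 and 78.3 CPM, a ratio of 0.333 (95% interval 0.183 to 0.574). That was below the level of Fn1 in T cells in the KO-labelled library and above it in the WT-labelled one. The part of free RNA in the Fn1 ratio was not tested. A single cell carried much of the Mgp, Vim and Fbln5 counts. In the WT-labelled library a single cell with 98965 UMIs, 33 of them from the arterial gene Gja5 and 65 from Sema3g, held 843 of the 1207 Mgp UMIs, 608 of 1397 Vim UMIs and 126 of 274 Fbln5 UMIs. Without the top cell of each library the ratios were 0.309 for Mgp, 0.417 for Fbln5 and 0.344 for Fn1, still past the rule, and 0.552 for Vim, which no longer was. In cells thinned to 4657 UMIs, Mgp was found in 31.7% of KO-labelled and 29.1% of WT-labelled portal cells, with 95% intervals of 18.1 to 48.1% and 17.6 to 42.9%, against 0% and 0.267% of T cells. Without thinning the portal shares were 31.1% and 44%, at median depths of 11207 and 9209 UMIs. Thinning left out 4 and 20 shallower cells, and the share of cells with Mgp could not be told apart between the libraries at this depth. The 11 portal vein and artery markers summed to 10445 and 10698 CPM, and the 9 sinusoidal markers to 2918 and 1871 CPM. Among the other wall genes of the same cells, Col5a2, Fbn1, Col4a1, Lox and Timp3 had ratios between 0.902 and 1.06. Eln had a ratio of 0.749 (95% interval 0.645 to 0.869), Fbln2 of 0.816 (95% interval 0.712 to 0.933) and Sparc of 0.787 (95% interval 0.729 to 0.85). Lamc1 stood at 0.672 (95% interval 0.473 to 0.945), and Tagln had 2 and 37 UMIs, too few for the rule. All 5 had intervals below 1, on the side of the 4 called genes, as did Lama4 (0.813) among the tested genes. Nid1, Bgn, Lox, Timp2, Timp3 and Mmp14 had ratios from 1.03 to 1.2, with intervals that held 1. For the 5, ratios without the cell of 98965 UMIs are not given.

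**Figure D5:**
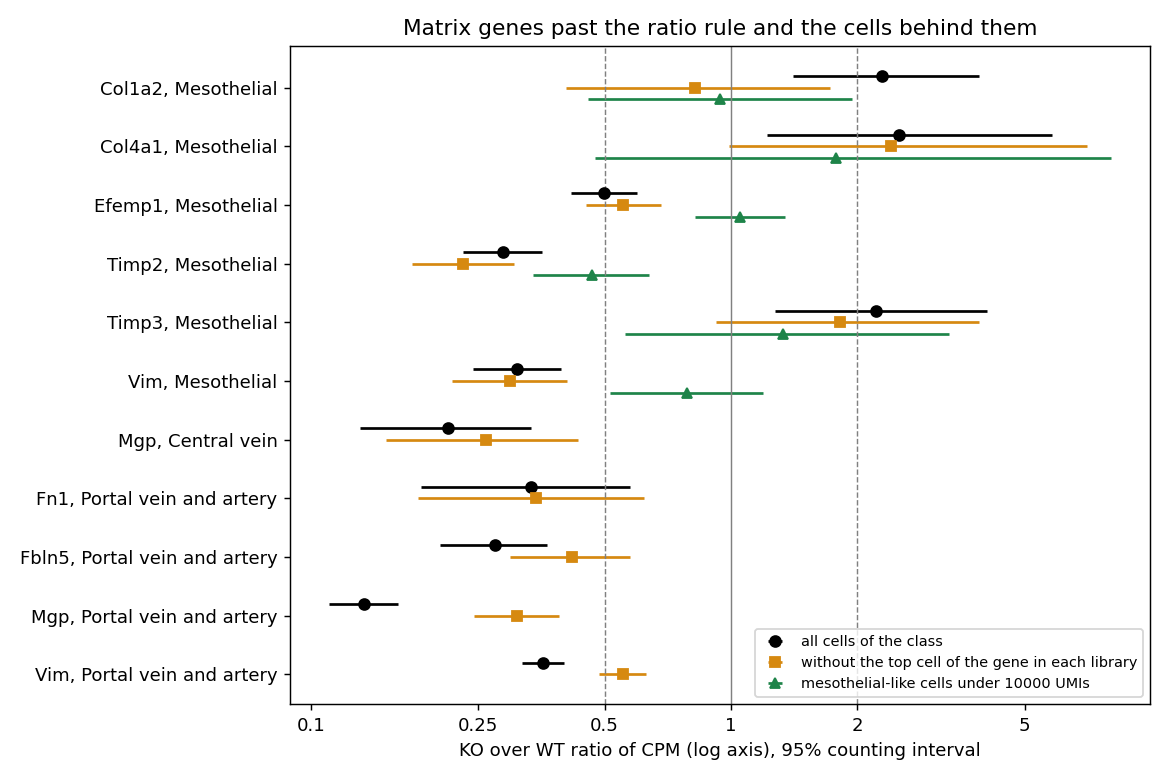
KO over WT ratios of CPM (log axis, 95% counting intervals) of the 11 matrix gene and class pairs past the ratio rule in the 8 compared mesenchymal and endothelial classes, over all cells of the class (circles), without the top cell of the gene in each library (squares) and, for mesothelial-like cells, in cells under 10000 UMIs (triangles). Mgp, Fbln5 and Fn1 in portal cells and Mgp in central vein cells stay below 0.5 over all cells and without the top cells, and mesothelial Efemp1 moves to 1.05 in the shallower cells.

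Among matrix genes, only Fn1 reached 10% of its highest class in hepatocytes of either library. That limit does not measure free RNA, so whether the other genes lay above free RNA in hepatocytes was not tested. Fn1 in hepatocytes, which make plasma fibronectin, was at 1009.9 CPM in the KO-labelled and 803 CPM in the WT-labelled library, a ratio of 1.26 (95% interval 1.23 to 1.28).

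Genes of neighbouring pathways in stellate-like cells were read by the same rule. Of 17 tested collagen processing and cross-linking enzymes, 0 were called in either direction, as were 0 of 15 matrix receptors and 0 of 19 TGF-beta signalling genes. The further lists gave 0 of 13 for other proteases and regulators, 0 of 20 for other matrix components and 0 of 12 for platelet-derived growth factors and stellate activation. With 0.499% of all genes called higher and 0.469% lower in these cells, lists of this size would show few calls in any case. Serpinh1, the collagen chaperone, was at 560.1 and 593 CPM, and Pcolce, an enhancer of procollagen cleavage, at 230.4 and 207 CPM. Among receptors, the integrin chains Itga1 and Itga9 were at 1049 and 939 CPM in the KO-labelled and 1039 and 970.0 CPM in the WT-labelled library, and the TGF-beta co-receptors Tgfbr3 and Eng at 617 and 429 against 672 and 519 CPM. Igfbp7 and Prelp, of the other matrix components, were at 2682 and 623 CPM against 2808 and 697 CPM, and the proteases Adamts9 and Ctsl at 656 and 519 against 681 and 581 CPM. The chemokine Cxcl12 was at 2499 and 2624 CPM, and Lrat, which makes the retinyl esters that stellate cells store, at 887 and 693 CPM. The median log2 ratios of these 6 lists ran from -0.16 (other matrix components) to 0.098 (other proteases and regulators). Over all sinusoidal cells the same 6 lists had 0 genes called, with medians from -0.097 to 0.036.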

How the data were processed

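The deposited matrices held raw UMI counts per gene and barcode; their header names Cell Ranger 8.0.1, and the submitters' processing notes name STAR and mm10. Cells with 500 UMIs, 300 genes and at most 20% mitochondrial UMIs were kept. Scrublet in scanpy 1.11.5 called 2.65% (KO) and 3.45% (WT) doublets, which were removed. The libraries were clustered together (2000 variable genes, 30 components, Leiden resolution 1), leaving out the 46 genes, and clusters were named from marker lists. Clusters with another class's markers (score of at least 1.5) or a doublet score of at least 0.15 were set aside, limits chosen after seeing the data. Free RNA was not subtracted. Counts were summed per class and library, with exact Poisson intervals for levels and Clopper-Pearson intervals for ratios and shares (scipy 1.17.1), which cover counting error only. Log2 ratios had 0.5 added to each count. The ratio rule was tested on simulated counts without differences between cells, so its error where single cells hold many UMIs was not tested. Gene spans are from GENCODE vM21. The genes, lists and rules were chosen with earlier results of these data known. Named in each of the 8 compared mesenchymal and endothelial classes were genes past a ratio of 1.5. The 10 highest genes and 2 or more of each role were named as well, with further examples chosen after their values were seen. Alternatives changed depth, resolution, mitochondrial limit, weighting and the rule.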

Additional observations from a re-analysis of the deposited data

How the results depend on the processing

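No paired analysis was possible because each genotype had 1 library. The number of matrix genes called stayed within 1.5 times under most alternatives and moved in these. With a minimum ratio of 1.5 it was 7 in fibroblast-like, 11 in mesothelial-like, 3 in central vein, 1 in pericentral and 3 in periportal cells, against 0, 6, 1, 0 and 0. With a minimum of 20 UMIs it was 2 in central vein and 1 in periportal cells, with at least 1000 UMIs per cell 1 in fibroblast-like and 1 in periportal cells, and at resolution 0.5 it was 1 in pericentral cells. The shares of all genes called under these alternatives are not given, so the counts are not read as results about the matrix genes. Among mesothelial-like cells under 10000 UMIs 3 of 15 tested matrix genes were called. With the set-aside mixed mesenchymal clusters added to stellate-like cells 2 were called (Fbln2 and Lox). Both alternatives, like leaving out top cells, were chosen after seeing the data. Without thinning, Col1a1 was found in 21.1% (KO) and 20.7% (WT) of stellate-like cells. Log2 ratios of pericentral over periportal cells reversed with at least 1000 UMIs per cell for Col5a2 (0.10 in KO, 0.24 in WT) and Fbn1 (0.052 in WT), and at resolution 2 for Fbn1 (0.14 in WT); the cause was not tested. In mesothelial-like cells Col1a2 reversed to -0.29 without the top cells and -0.092 under 10000 UMIs, where Efemp1 reversed to 0.072 and the uncalled Col14a1 and Adamts2 changed sign to 0.20 and 0.12. Of the alternatives for named ratios between the libraries, 280 kept the call and direction, which includes uncalled genes that stayed uncalled. Of the others, 20 were stronger, 14 weaker, 6 moved and 3 reversed. Resolution 2 gave no fibroblast-like class and the 10% mitochondrial limit no mesothelial-like class. The count of genes led by a mesenchymal class ran from 33 to 39 and that of zone genes from 2 to 4, not always the same genes. The main limits were 1 library per genotype, 29 to 46 KO-labelled cells in the small classes, and free RNA, so that genes under about 50 UMIs in a class could not be compared.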

Other observations

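Immune and bile duct cells carried a few matrix genes above the level in T cells. Kupffer cells held Timp2 at 169.6 and 165 CPM, Tgfb1 at 181 and 183 CPM and Vim at 260.3 and 221 CPM. Monocytes held Fn1 at 432 and 403 CPM and Tgfb1 at 234 and 264 CPM. Both groups of phagocytes thus carried Tgfb1, which T cells held at 75.7 and 81 CPM. B cells held the laminin chain Lamc1 at 191 and 191 CPM, equal in the libraries, against 38.5 and 23.9 CPM in T cells. Cholangiocytes, the bile duct cells, held Fn1 at 437 and 440.3 CPM, against 53.4 and 58 CPM in T cells. Not all matrix genes were this close in these classes. In cholangiocytes Reln (46.5 and 21.2 CPM) was called higher and Vim (26.2 and 62.4 CPM) lower, of 16 tested. In monocytes 1 was called higher and 2 lower of 13 tested. The shares of all genes called in these classes are not given, so these counts are not read as a result about the matrix genes.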
